A study of Homo sapiens with 18 samples.

Results

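The APOBEC3 family of cytidine deaminases was examined in 2 bladder cancer (BLCA) cell lines with and without knockdown of ACAT1, the mitochondrial acetyl-CoA acetyltransferase. The members, APOBEC3A, APOBEC3B, APOBEC3C, APOBEC3D, APOBEC3F, APOBEC3G and APOBEC3H, are 7 of the 39496 gene rows and were taken by name as a gene family, by a rule that uses no measured value, although earlier results of these data were known when the family was chosen. RNA-seq was performed on 18 libraries in 6 groups of 3, which the labels call biological replicates. UM-UC-3 and T24 are established human BLCA lines, and cells of each were transfected with the control siRNA siNC or with siACAT1-1 or siACAT1-2, which target ACAT1. All groups, siNC included, received an siRNA by lipid transfection (Lipofectamine). The time of harvest is not given in the sources used here. UM-UC-3 was grown in MEM and T24 in RPMI-1640, so cell line and medium cannot be told apart, and each line stands for 1 tumor-derived culture.

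The libraries held between 25163490 and 34417230 counted reads. ACAT1 averaged 46.0 RPKM in UM-UC-3 siNC, 3.05 with siACAT1-1 and 2.16 with siACAT1-2. In T24 these means were 16.2, 1.29 and 0.792 RPKM. RPKM, the read count scaled by the exon length of a gene and by the total of the library, allows levels to be compared between genes of different length. Of 16 urothelial and epithelial markers found in the table, 3 averaged at least 1 RPKM in UM-UC-3 and 7 in T24. The uroplakins UPK1B and UPK3A and the cadherin CDH1 had no reads in the siNC libraries of either line. The keratin KRT7 averaged 4.12 RPKM in UM-UC-3 siNC and 275 RPKM in T24 siNC. Of 14 immune cell markers, 1 (CD68) averaged at least 1 RPKM in either line, and the leukocyte marker PTPRC did not exceed 0.0170 RPKM in any library. In bulk RNA, fewer cells that express a gene and less of its RNA per cell cannot be told apart.

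APOBEC3 enzymes convert cytosine to uracil in single-stranded DNA. They restrict retroviruses and retrotransposons by mutating their DNA copies, and APOBEC3A and APOBEC3B are known as sources of C-to-T and C-to-G mutations in bladder cancer genomes. The uracil they leave is removed by base excision repair or copied by translesion polymerases. The genes lie side by side on 1 chromosome arm, arose by duplication and carry a single zinc-binding deaminase domain or a pair of them.

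The family spans chr22:38952741-39104067 in the gene models of the count table (GRCh38), and all 7 members lie on the plus strand in the order A, B, C, D, F, G, H. In the annotated coding sequences (GENCODE v44 canonical transcripts), the zinc-binding deaminase motif, a histidine and glutamate followed by a proline and a pair of cysteines, occurred 1 time in APOBEC3A, APOBEC3C and APOBEC3H and 2 times in APOBEC3B, APOBEC3D, APOBEC3F and APOBEC3G. The part of the motif that holds the cysteines is printed for every domain because it shows how alike the members are. Sequences run 5′ to 3′ on the plus strand, each is exonic and coding, and capitals mark the codons from the proline to the last cysteine.
APOBEC3A, chr22:38961504-38961530: tggagcCCCTGCTTCTCCTGGGGCTGT
APOBEC3B first domain, chr22:38985917-38985943: tggaccCCCTGCCCGGACTGTgtggcg
APOBEC3B second domain, chr22:38991449-38991475: tggagcCCCTGCTTCTCCTGGGGCTGT
APOBEC3C, chr22:39017871-39017897: tggagcCCTTGCCCAGACTGTgcaggg
APOBEC3D first domain, chr22:39025175-39025201: tggaacCCCTGCCTGCCCTGTgtggtg
APOBEC3D second domain, chr22:39031799-39031825: tggagcCCTTGCCCAGAGTGTgcaggg
APOBEC3F first domain, chr22:39045046-39045072: tggaccCCCTGCCCGGACTGTgtggcg
APOBEC3F second domain, chr22:39052179-39052205: tggagcCCTTGCCCAGAGTGTgcaggg
APOBEC3G first domain, chr22:39081041-39081067: tggagcCCCTGCACAAAGTGTacaagg
APOBEC3G second domain, chr22:39086396-39086422: tggagcCCCTGCTTCAGCTGTgcccag
APOBEC3H, chr22:39101330-39101356: tggagcCCCTGCTCCTCCTGTgcctgg

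APOBEC3A and the second domain of APOBEC3B had the same 27 bases here. The first domains of APOBEC3B and APOBEC3F were also identical over 27 bases, as were the second domains of APOBEC3D and APOBEC3F, and APOBEC3C differed from the latter at 1 base. Over the aligned coding sequence APOBEC3A and APOBEC3B were 93.1% identical, APOBEC3C and APOBEC3D 90.5%, and APOBEC3C and APOBEC3F 90.3%. Of the 50-base windows in the exons of APOBEC3A that lie outside the exon it shares with APOBEC3B, 13.8% also occurred in APOBEC3B, and 11.8% of the windows of APOBEC3B occurred in APOBEC3A. APOBEC3H shared no 50-base window with another member. Reads that lie within such windows can map to more than 1 member, and how the counting treated them is not given in the sources used here. Levels of APOBEC3A and APOBEC3B in particular are therefore uncertain.

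The gene rows also overlap in position, which decides what some of the values can show. The APOBEC3A row extends over chr22:38952741-38992778 and includes a 348-base exon block, chr22:38992431-38992778, that lies in the last exon of APOBEC3B and makes up 14.8% of the 2358 exonic bases of APOBEC3A. APOBEC3B-AS1, an antisense transcript at chr22:38991559-38998209 on the minus strand, covers 244 of the 1896 exonic bases of APOBEC3B and 151 bases of that shared block. The libraries were stranded, but whether the counting used the strand is not given in the sources used here, so it is not known whether reads from APOBEC3B and its antisense partner were kept apart there. APOBEC3C and APOBEC3D share 17 exonic bases, as do APOBEC3F and APOBEC3G. These shared exons are shown with 6 bases on each side, and capitals mark the 17 shared bases, which begin with ATG. Whether this ATG is a start codon of both members of a pair was not tested.
APOBEC3C and APOBEC3D, chr22:39014363-39014379: ctgaacATGAATCCACAGATCAGgtacct
APOBEC3F and APOBEC3G, chr22:39040961-39040977: ccaaggATGAAGCCTCACTTCAGgtaccg

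APOBEC3B was the most abundant member in every group. In UM-UC-3 siNC the mean levels were 33.0 ± 8.87 RPKM (SD, n = 3) for APOBEC3B, 7.35 ± 0.418 for APOBEC3C, 4.31 ± 0.512 for APOBEC3D, 3.96 ± 0.713 for APOBEC3A, 1.85 ± 0.366 for APOBEC3G and 0.765 ± 0.341 for APOBEC3F. The libraries of APOBEC3D and APOBEC3A overlapped in this order, and the other neighbors did not. In T24 siNC the order was the same, with 10.5 ± 3.33 RPKM for APOBEC3B, 4.23 ± 1.36 for APOBEC3C, 2.73 ± 0.763 for APOBEC3D, 0.884 ± 0.292 for APOBEC3A, 0.759 ± 0.188 for APOBEC3G and 0.535 ± 0.153 for APOBEC3F. There the ranges of APOBEC3C and APOBEC3D, of APOBEC3A and APOBEC3G, and of APOBEC3G and APOBEC3F overlapped. APOBEC3B made up 63.7 ± 6.07% of the summed APOBEC3 RPKM in UM-UC-3 siNC and 53.0 ± 10.3% in T24 siNC.

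APOBEC3H, a single-domain member, had 2 reads in all, both in replicate 2 of UM-UC-3 siACAT1-1 (0.0521 RPKM), and was at 0 in the other libraries. In the shallowest library, 3 counts, taken as the upper limit for a gene with 0 reads, correspond to 0.0953 RPKM. A count of 0 is thus compatible with a level of up to about that size. This limit treats reads as independent, although 72.5% of counts of 1 to 19 were even, so it is approximate. APOBEC3H was left out of the tests by the filter on low counts, which the other 6 members passed. It is named with its counts only.

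**Figure D1:**
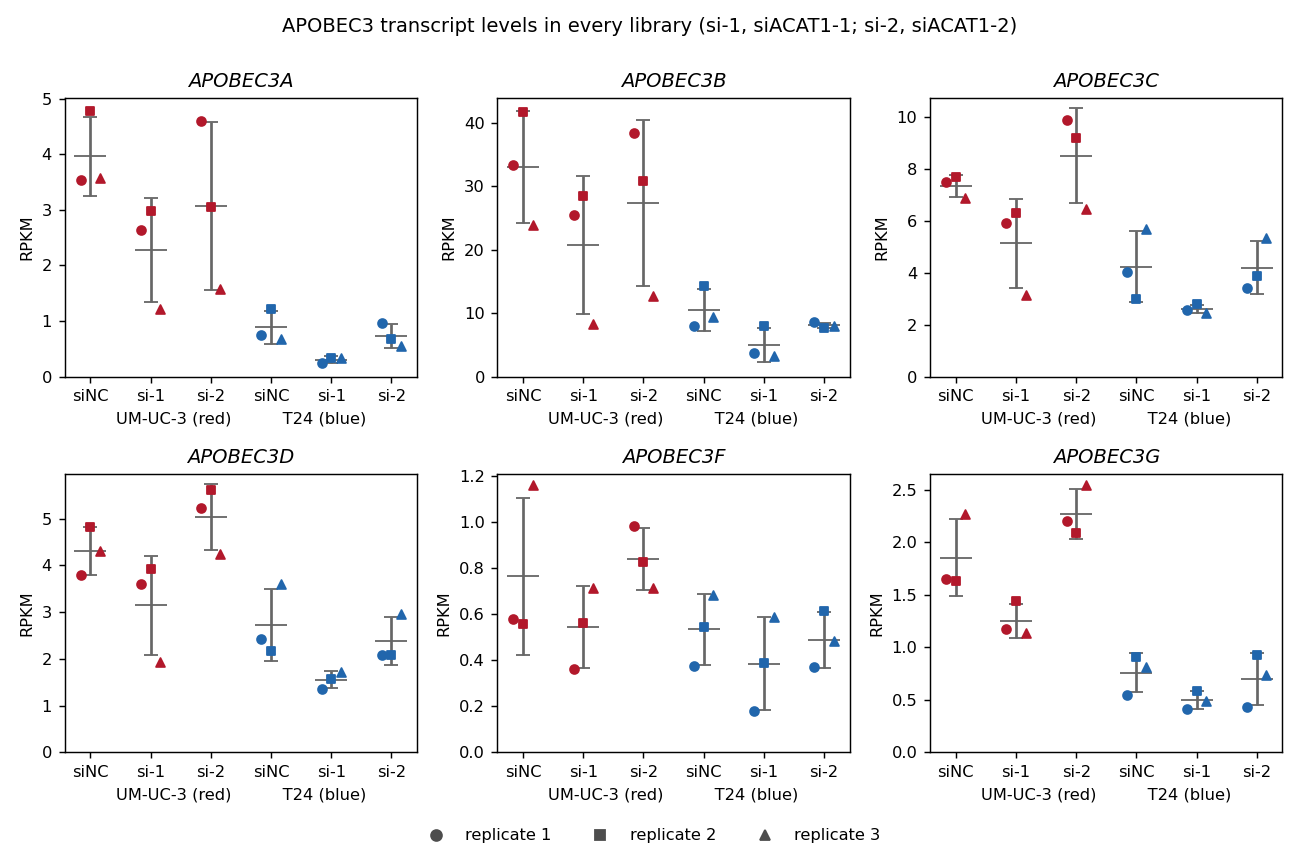
RPKM of 6 APOBEC3 genes (y axis, separate scale in each panel) in every library, by cell line and siRNA (x axis), with the marker giving the replicate number and the gray bar the mean and SD of 3 libraries. APOBEC3A and APOBEC3G were higher in all 9 UM-UC-3 libraries than in all 9 T24 libraries, and the replicate 3 libraries of UM-UC-3 lay below the others for APOBEC3B. How many of all genes were separated in this way was not counted.

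With siNC, 5 of the 6 tested members were higher in UM-UC-3 than in T24, and none was lower. This comparison asks how the lines differ without knockdown. It is set against a background in which 44.3% of all 20144 tested genes differed. Of all tested genes, 22% were higher in UM-UC-3 and 22.3% were lower. The median log2 fold change was 1.09 over the 6 members and 0.03 over all tested genes.

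APOBEC3A, a single-domain enzyme known as a potent DNA mutator, had the largest fold change of the members. It was at 3.53, 4.78 and 3.57 RPKM in the UM-UC-3 siNC libraries and at 0.752, 1.22 and 0.681 RPKM in those of T24. The groups were far apart, although the T24 values rest on only 45 to 81 reads a library. The level was 4.66-fold higher in UM-UC-3 (log2 fold change 2.22, SE 0.40, edgeR adjusted p = 2.9e-04). APOBEC3B-AS1, whose row overlaps that of APOBEC3A, had a similar log2 fold change of 2.14 (SE 0.43). How far shared reads enter the APOBEC3A value was not tested.

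APOBEC3B, a nuclear enzyme with a pair of domains, was at 33.4, 41.6 and 23.9 RPKM in UM-UC-3 siNC and at 7.91, 14.3 and 9.41 RPKM in T24 siNC. The lowest UM-UC-3 library thus exceeded the highest T24 library. It was 3.27-fold higher in UM-UC-3 (log2 fold change 1.71, SE 0.46, edgeR adjusted p = 0.0060).

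APOBEC3C and APOBEC3D, which restrict retroelements only weakly or moderately, differed less. APOBEC3C was at 7.51, 7.67 and 6.88 RPKM in UM-UC-3 and at 4.03, 2.98 and 5.68 RPKM in T24. For APOBEC3D the values were 3.80, 4.82 and 4.30 RPKM against 2.42, 2.17 and 3.60 RPKM. Neither gene had overlapping groups, but the gaps were narrow. The log2 fold change was 0.84 (SE 0.28, edgeR adjusted p = 0.020) for APOBEC3C and 0.70 (SE 0.26, edgeR adjusted p = 0.040) for APOBEC3D. Both calls were lost without UM-UC-3 siNC replicate 1, UM-UC-3 siNC replicate 2 or T24 siNC replicate 2, each of which left 3 members called. The call of APOBEC3D was also lost without UM-UC-3 siNC replicate 3, replicate 1 of either siACAT1 group of UM-UC-3, T24 siNC replicate 1, or replicate 1 or 2 of T24 siACAT1-1.

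APOBEC3G, the cytoplasmic factor best known for restricting HIV-1 that lacks Vif, was at 1.65, 1.63 and 2.27 RPKM in UM-UC-3 siNC and at 0.549, 0.911 and 0.817 RPKM in T24 siNC. It was 2.53-fold higher in UM-UC-3 (log2 fold change 1.34, SE 0.24, edgeR adjusted p = 2.6e-04). APOBEC3F, its neighbor and functional partner against retroviruses, was at 0.579, 0.558 and 1.16 RPKM against 0.376, 0.547 and 0.682 RPKM, and these groups overlapped. Its log2 fold change of 0.56 (SE 0.39) did not pass the test (edgeR adjusted p = 0.26).

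The direction was the same under the siACAT1 siRNAs. With siACAT1-1 the log2 fold change between the lines was 2.94 (SE 0.44) for APOBEC3A, 2.11 (SE 0.47) for APOBEC3B, 1.01 (SE 0.28) for APOBEC3C, 1.06 (SE 0.27) for APOBEC3D, 0.54 (SE 0.40) for APOBEC3F and 1.38 (SE 0.24) for APOBEC3G. With siACAT1-2 these were 2.05, 1.75, 1.01, 1.07, 0.78 and 1.70. Over all 9 libraries of a line, APOBEC3A ranged from 1.22 to 4.78 RPKM in UM-UC-3 (median 3.05) and from 0.235 to 1.22 RPKM in T24 (median 0.678). APOBEC3G ranged from 1.14 to 2.54 RPKM (median 1.65) and from 0.413 to 0.924 RPKM (median 0.584). These 2 members did not overlap between the lines, and the other 4 did. The share of all tested genes without overlap was not counted. Over the 3 siRNAs, 66.1% of all tested genes were called between the lines in either direction (edgeR). For APOBEC3B, 7 of 9 UM-UC-3 libraries exceeded every T24 library.

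In the mean of the 3 cell line differences, all 6 tested members were higher in UM-UC-3, where 33.2% of tested genes were called higher. With the libraries of 1 replicate number treated as a random block in limma voom, 5 of 6 were called, against 26.4% of tested genes. The member lost was APOBEC3F, with a log2 fold change of 0.63 (edgeR adjusted p = 0.022) that became 0.65 (adjusted p = 0.13) with the block. Its call was lost, too, without UM-UC-3 siNC replicate 3 or UM-UC-3 siACAT1-1 replicate 3.

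**Figure D2:**
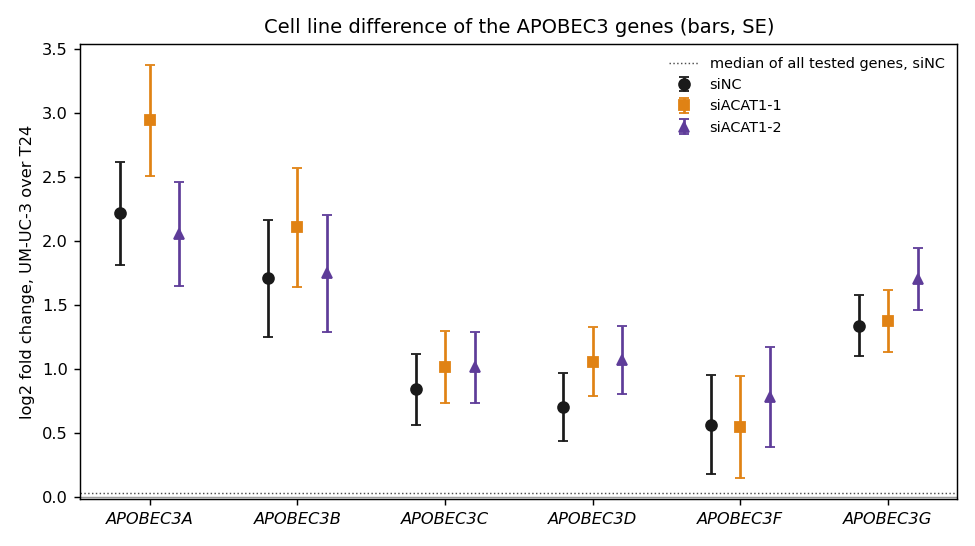
Log2 fold change of UM-UC-3 over T24 (y axis) for 6 APOBEC3 genes (x axis) under each siRNA, with bars for the SE from edgeR. All 18 values are above 0, the median of all tested genes with siNC (dotted line) is 0.03, and APOBEC3A has the largest value under each siRNA.

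Some of the rows that share exons kept nearly fixed ratios to each other. The count of APOBEC3A divided by that of APOBEC3B-AS1 had a median of 0.578 over the 18 libraries and a coefficient of variation of 9.78%, with a single low value of 0.387 in T24 siACAT1-1 replicate 2. The ratio of APOBEC3A to APOBEC3B was between 0.123 and 0.186 in UM-UC-3 and between 0.0523 and 0.140 in T24. These ranges overlapped. APOBEC3D to APOBEC3C had a median of 0.551 and a coefficient of variation of 9.83%, although these rows share only 17 bases. APOBEC3F to APOBEC3G varied more, with a coefficient of variation of 41.4%. The part of shared reads in these ratios was not tested.

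**Figure D3:**
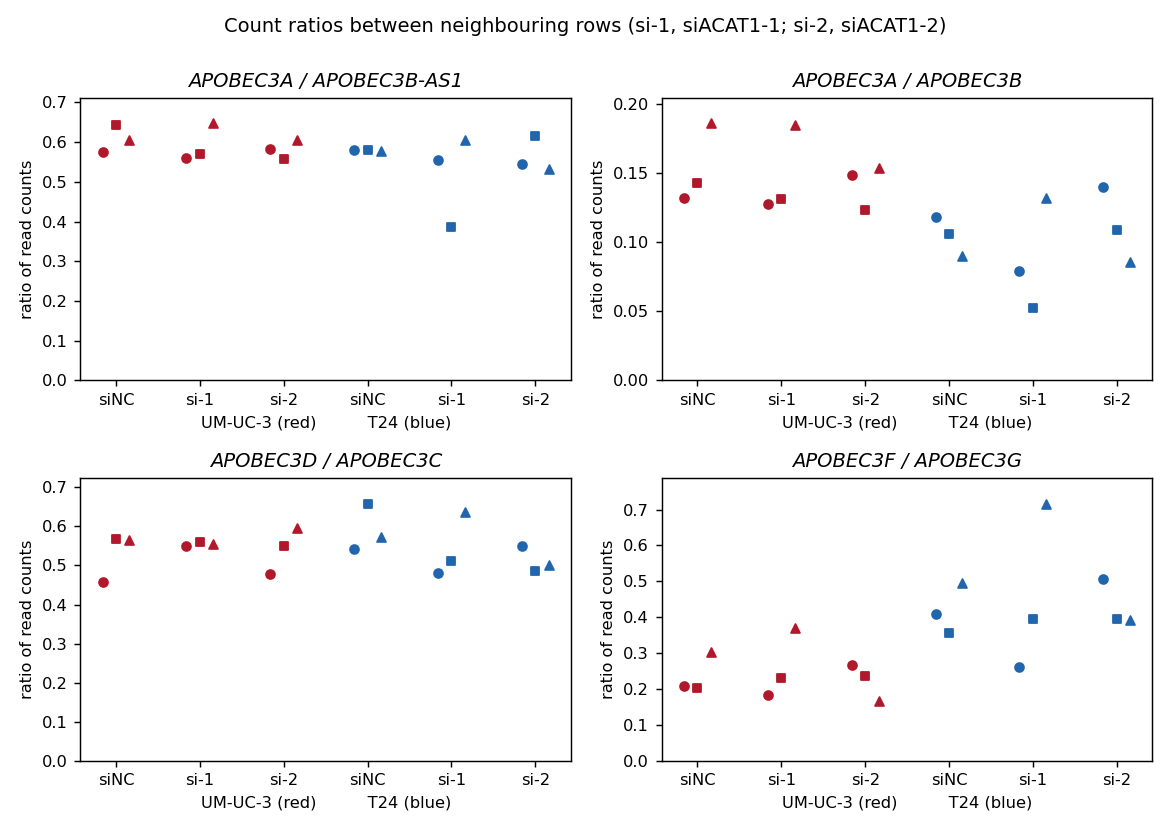
Ratio of read counts (y axis, from 0) between 4 pairs of neighboring rows in every library, by cell line and siRNA (x axis). The ratios of APOBEC3A to APOBEC3B-AS1 and of APOBEC3D to APOBEC3C stay near 0.578 and 0.551, while APOBEC3F to APOBEC3G spans 0.167 to 0.371 in UM-UC-3 and 0.262 to 0.716 in T24.

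Knockdown of ACAT1 was then compared with siNC of the same line. Every tested member was lower on average with siACAT1-1 in both lines, and with siACAT1-2 some members were lower on average and others higher in UM-UC-3. Of all tested genes, 51.3% in UM-UC-3 and 49.9% in T24 were lower on average with siACAT1-1. No member passed the test in a model of the 6 groups alone. Libraries with the same replicate number within a line deviated together, so the fit with the replicate number as a block stands beside each count here. With that block, 5 members fell with siACAT1-1 in T24 and 1 in UM-UC-3, against 7.31% and 1.1% of all tested genes called lower.

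For each tested member the lowest level of the series was in a T24 library with siACAT1-1. APOBEC3A was at 0.235, 0.337 and 0.337 RPKM with siACAT1-1, below all siNC libraries, on 15 to 24 reads. APOBEC3B was at 3.68, 8.03 and 3.19 RPKM, which overlapped siNC, and replicate 2, the highest here, also had the highest siNC value. APOBEC3C was at 2.57, 2.79 and 2.45 RPKM and APOBEC3D at 1.36, 1.58 and 1.73 RPKM, below all siNC libraries. For APOBEC3G the values were 0.413, 0.584 and 0.488 RPKM, and the lowest siNC library lay among them.

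Without the block, 0 of 6 members were called in this comparison (edgeR), where 0.124% of all genes were. At an unadjusted p under 0.05 there were 5 members, against 11.5% of all tested genes in either direction. With the block, 5 were called lower, against 7.31% of all genes. The log2 fold changes were -1.51 (SE 0.34, edgeR adjusted p = 0.0060) for APOBEC3A, -1.11 (SE 0.23, adjusted p = 0.0034) for APOBEC3B, -0.64 (SE 0.18, adjusted p = 0.024) for APOBEC3C, -0.77 (SE 0.18, adjusted p = 0.0083) for APOBEC3D and -0.59 (SE 0.19, adjusted p = 0.038) for APOBEC3G. APOBEC3F, at 0.182, 0.389 and 0.588 RPKM, had a log2 fold change of -0.50 (SE 0.32) that did not pass (adjusted p = 0.33). The count of 5 fell to 1 without replicate 1 or without replicate 3 of the T24 libraries. APOBEC3B alone was called without replicate 1, and APOBEC3A alone without replicate 3.

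In UM-UC-3 with siACAT1-1, APOBEC3B was at 25.5, 28.4 and 8.23 RPKM. Each value was below the siNC library of the same number, but the first 2 were above siNC replicate 3. APOBEC3A was at 2.63, 2.98 and 1.22 RPKM, below all siNC libraries. APOBEC3C (5.91, 6.31 and 3.16 RPKM) and APOBEC3G (1.17, 1.44 and 1.14 RPKM) were also below all siNC libraries, and APOBEC3D (3.61, 3.92 and 1.94 RPKM) overlapped them, as did APOBEC3F (0.361, 0.563 and 0.715 RPKM). Without the block 0 of 6 members were called (edgeR), where 0.00993% of genes were. At an unadjusted p under 0.05 there was 1 member, against 5.34% of all tested genes. With the block, APOBEC3B was called lower (log2 fold change -0.83, SE 0.22, edgeR adjusted p = 0.042), against 1.1% of genes. APOBEC3A had a log2 fold change of -0.90 (SE 0.25, adjusted p = 0.058). The count was 0 with the block without replicate 1 or replicate 3 of UM-UC-3, and 3 without replicate 2 of T24.

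With siACAT1-2, APOBEC3B was at 38.3, 30.8 and 12.7 RPKM in UM-UC-3 and at 8.55, 7.70 and 7.94 RPKM in T24. APOBEC3A was at 4.59, 3.05 and 1.58 RPKM in UM-UC-3 and at 0.963, 0.678 and 0.547 RPKM in T24. APOBEC3G was at 2.20, 2.09 and 2.54 RPKM in UM-UC-3 and at 0.435, 0.924 and 0.739 RPKM in T24. APOBEC3C was at 9.88, 9.21 and 6.44 RPKM in UM-UC-3 and at 3.42, 3.86 and 5.34 RPKM in T24. All of these overlapped siNC. In UM-UC-3 0 of 6 members were called without the block (edgeR, background 0.0546%) and 0 with it (background 1.36%). In T24 0 of 6 were called without the block (edgeR, background 0.268%) and 0 with it (background 8.48%). Without the block 0 members had an unadjusted p under 0.05 in either line, against 3.86% (UM-UC-3) and 8.44% (T24) of all genes. The log2 fold changes with the block ran from -0.51 (SE 0.25, APOBEC3A) to 0.26 (SE 0.16, APOBEC3G) in UM-UC-3 and from -0.29 (SE 0.23, APOBEC3B) to 0.02 (SE 0.18, APOBEC3C) in T24.

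Set within replicate numbers, siACAT1-1 was below siNC in 6 of 6 pairs for APOBEC3A, APOBEC3B, APOBEC3C, APOBEC3D and APOBEC3G and in 5 of 6 for APOBEC3F. The differences of APOBEC3A ran from -1.74 to -0.47 in log2 CPM, and those of APOBEC3G from -0.96 to -0.15. Against the same controls, siACAT1-2 was below siNC in 4 of 6 pairs for APOBEC3A, APOBEC3B and APOBEC3D, in 3 of 6 for APOBEC3C and in 2 of 6 for APOBEC3F and APOBEC3G. Both siRNAs share the siNC libraries. Such pairs were not counted over all tested genes, so these counts describe the members only.

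**Figure D4:**
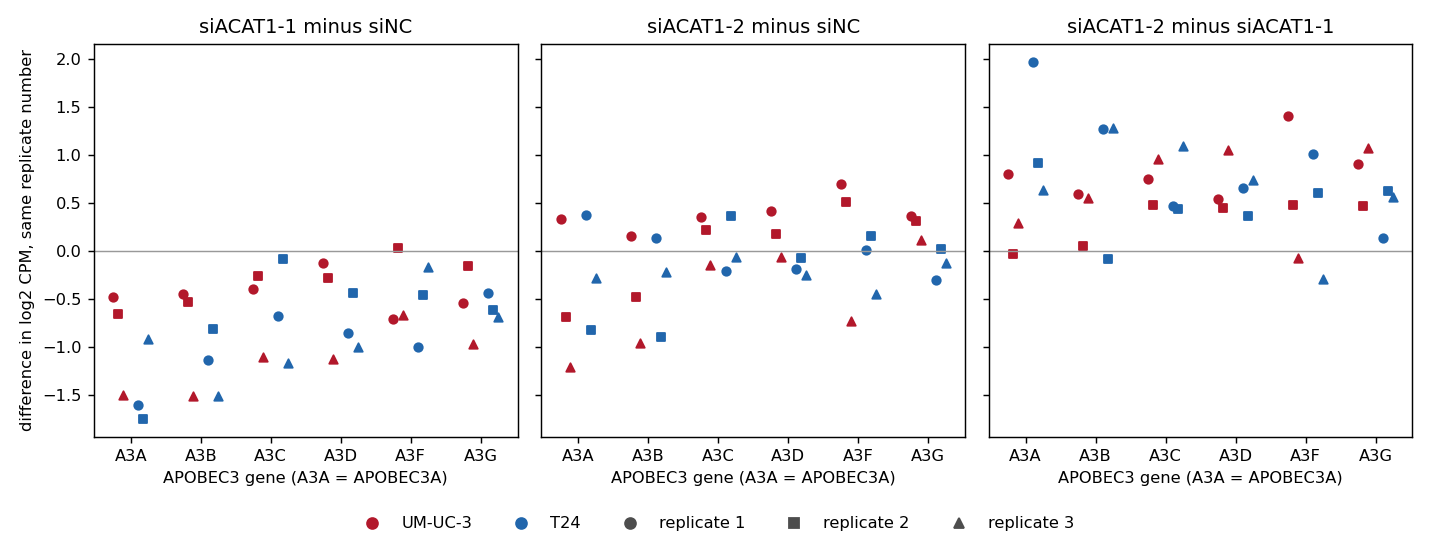
Difference in log2 CPM between libraries of the same line and replicate number (y axis) for 6 APOBEC3 genes (x axis), for siACAT1-1 minus siNC, siACAT1-2 minus siNC and siACAT1-2 minus siACAT1-1. Nearly all points of the first panel are below 0, those of the second lie on both sides, and most of the third are above 0. All genes share the same 6 pairs of libraries in a panel, so points of different genes are not independent.

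In the mean of the 4 siRNA comparisons, 0 of 6 members were called without the block (edgeR, background 0.223%). At an unadjusted p under 0.05 there were 2 members, against 10.9% of all tested genes. With the block, APOBEC3A (log2 fold change -0.79, SE 0.17, edgeR adjusted p = 0.0051) and APOBEC3B (-0.67, SE 0.13, adjusted p = 0.0027) were lower, 2 of 6 against 6.46% of genes called lower. The other 4 members had values between -0.32 and -0.22 and did not pass. The knockdown effect did not differ detectably between UM-UC-3 and T24. Without the block 0 of 6 members were called (edgeR, background 0%), and 0 with it (background 0.104%). At an unadjusted p under 0.05 without the block there were 0 members, against 2.57% of all tested genes. The differences between the lines in knockdown effect had SEs of 0.21 to 0.37 with the block.

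The 2 siRNAs were compared with each other because both target ACAT1 and siACAT1-2 left less of it. Members were higher with siACAT1-2 than with siACAT1-1 over both lines. Without the block, 1 of 6 was called higher, APOBEC3G (log2 difference 0.65, SE 0.17, edgeR adjusted p = 0.0499), against 1.18% of genes. At an unadjusted p under 0.05 there were 4 members, against 16.7% of all tested genes in either direction. Leaving out a single library ended the call of APOBEC3G for 13 of the 18 libraries, with adjusted p-values from 0.0532 to 0.135. With the block, 5 were called higher, against 10.4% of genes. The log2 differences were 0.83 (SE 0.22, edgeR adjusted p = 0.0099) for APOBEC3A, 0.61 (SE 0.16, adjusted p = 0.010) for APOBEC3B, 0.69 (SE 0.13, adjusted p = 7.0e-04) for APOBEC3C, 0.63 (SE 0.13, adjusted p = 0.0014) for APOBEC3D and 0.64 (SE 0.12, adjusted p = 0.0011) for APOBEC3G. APOBEC3F had 0.52 (SE 0.22, adjusted p = 0.10). The median was 0.64 over the members and 0.02 over all tested genes with the block. Without replicate 1 of the T24 libraries the count was 3. ACAT1 itself was lower with siACAT1-2 (log2 difference -0.62, SE 0.12, adjusted p = 8.2e-04 with the block), the opposite direction.

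The replicate numbers also marked a difference in UM-UC-3. APOBEC3B was at 8.23 to 23.9 RPKM in the 3 libraries of replicate 3 and at 25.5 to 41.6 RPKM in the other 6. APOBEC3A was at 1.22 to 3.57 RPKM against 2.63 to 4.78 RPKM. APOBEC3C averaged 5.49 RPKM in replicate 3 and 7.76 and 7.73 RPKM in replicates 1 and 2. APOBEC3G lay the other way, as it averaged 1.99 RPKM in replicate 3 and 1.67 and 1.72 RPKM in replicates 1 and 2. Without the replicate 3 libraries of UM-UC-3, 5 members were called higher in UM-UC-3 with siNC.

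The members whose libraries moved most alike were neighbors on the chromosome. After the mean of each line was subtracted, the Pearson correlation of log2 CPM over the 18 libraries was 0.89 for APOBEC3A and APOBEC3B and 0.95 for APOBEC3C and APOBEC3D, but 0.14 for APOBEC3B and APOBEC3F. Of the other tested neighbors, APOBEC3F and APOBEC3G had 0.688, APOBEC3B and APOBEC3C 0.684, and APOBEC3D and APOBEC3F 0.412. The last value was below that of some pairs that are not neighbors, such as APOBEC3B and APOBEC3D (0.675). These points share libraries and siRNA groups, and APOBEC3A and APOBEC3B share an exon. Over all tested genes, the row most like APOBEC3A was APOBEC3B-AS1 (0.98), followed by APOBEC3B and the single-stranded DNA-binding protein gene NABP2 (0.88). For APOBEC3B it was APOBEC3B-AS1 (0.94), followed by CENPW (0.93), a centromere protein, and CTSV (0.90), a cathepsin. GALK1, a galactokinase, was close to both APOBEC3C (0.95) and APOBEC3D (0.94). The other leading rows were SEPN1 (0.92) for APOBEC3C, a clone-named transcript (0.92) for APOBEC3D, METTL21B, RABAC1 and LAMB2 (0.85 to 0.87) for APOBEC3F, and SPTBN4, NAT14 and FAXDC2 (0.87 to 0.90) for APOBEC3G.

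Genes that surround the members in function were counted in the same fits. Several APOBEC3 genes respond to interferon in other cells, and of 25 interferon-induced genes 0 were higher and 17 lower in UM-UC-3 than in T24 with siNC, against 22.3% of all tested genes called lower. Their median log2 fold change was -2.05, against 1.09 for the APOBEC3 members. BST2, which tethers virions to the cell, averaged 0.336 RPKM in UM-UC-3 and 120 RPKM in T24 (log2 fold change -8.44). BST2 had at most 14 reads in a UM-UC-3 siNC library, and IFI27 (-6.07) and OASL (-4.07) at most 6, so these folds are imprecise. MX2 had at most 2 reads there and at most 16 in T24 siNC, and no fold is given. With knockdown, IFIT3, an interferon-induced antiviral protein, was the 1 gene of this list called over the 4 comparisons (log2 fold change 0.76, SE 0.12, edgeR adjusted p = 0.018). Of all tested genes, 0.109% were called higher there. IFIT3 was also called with siACAT1-2 in UM-UC-3 (1.40, SE 0.20, edgeR adjusted p = 0.0094), against 0.0149% of genes called higher. Over the 4 comparisons with the block 11 of 25 rose and 0 fell, against 5.95% of genes called higher. APOBEC3A and APOBEC3B fell in the same fit.

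**Figure D5:**
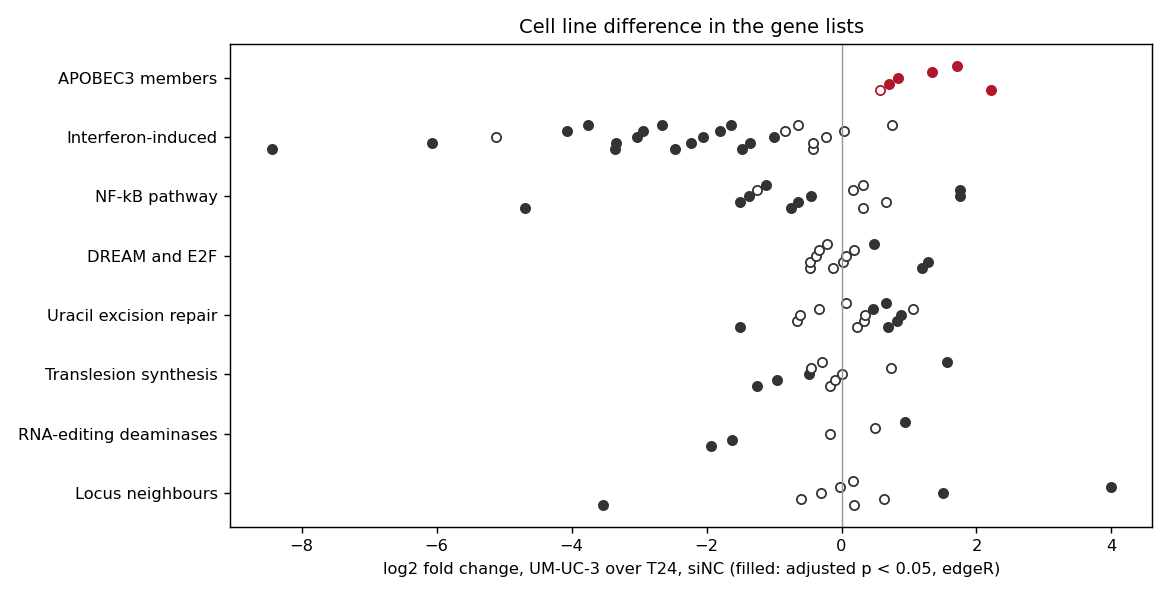
Log2 fold change of UM-UC-3 over T24 with siNC (x axis) for the tested genes of 8 lists (y axis), filled where edgeR's adjusted p is below 0.05. All 6 APOBEC3 points are above 0, and 17 of 25 interferon-induced genes are filled and below 0.

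The following counts between the lines stand against the same 22% of all tested genes called higher and 22.3% called lower. Of 14 genes of the NF-kB pathway, which can activate APOBEC3B, 2 were higher in UM-UC-3 with siNC (BIRC3 by a log2 fold change of 1.76 and the kinase MAP3K14 by 1.75) and 7 were lower, among them TNFAIP3 (-4.69) and NFKBIA (-1.50), both inhibitors of the pathway. The next list holds 12 genes of the DREAM complex, which can repress APOBEC3B, and of related E2F and MYB factors. Of these, 3 were higher, the chromatin subunit RBBP4 (1.28), LIN37 (1.20) and RBL2 (0.48), a share near that of all genes, and 0 were lower. With the block, 1 of these 12 rose and 2 fell over the 4 siRNA comparisons, against 5.95% and 6.46% of all tested genes.

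Enzymes that process uracil in DNA were called in either direction for 6 of 14 genes between the lines, a share close to the 44.3% of all tested genes. Of these 14 base excision repair genes, 5 were higher in UM-UC-3 with siNC and 1 was lower, the endonuclease APEX2 (-1.51). The higher ones included the glycosylase MBD4 (0.88) and DUT (0.69), which keeps uracil out of the nucleotide pool. UNG, the main uracil glycosylase, averaged 15.3 ± 5.50 RPKM in UM-UC-3 and 12.4 ± 5.47 RPKM in T24 (log2 fold change 0.33, SE 0.38). Over the 4 siRNA comparisons with the block, 9 of the 14 fell and 1 rose, against 6.46% and 5.95% of all tested genes. UNG (-0.45), the ligase LIG1 (-0.51), POLB (-0.37) and DUT (-0.35) were among those that fell, and the glycosylase TDG (0.39) rose. No gene of this list passed without the block.

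For the lists that follow, 44.3% of all tested genes were called in either direction, 22% higher and 22.3% lower, and shares near these say nothing particular of a list. Of 10 translesion synthesis genes, REV3L (1.56), the catalytic subunit of polymerase zeta, was higher in UM-UC-3 with siNC, and UBE2A (-1.26), RAD18 (-0.95) and REV1 (-0.49) were lower. Of 5 tested RNA-editing deaminases, ADAT2 (0.95) was higher and ADARB1 (-1.93) and ADAT1 (-1.63) were lower, and ADAR (-0.17) did not pass. APOBEC4, a more distant relative, had at most 2 reads in a library and was not tested. Among 10 other restriction factors 3 were higher, among them IFITM3 (1.14), and 3 lower, SAMHD1 (-1.30) with BST2 and MX2 of the interferon list. The next 7 tested genes belong to the ubiquitin ligase that HIV-1 Vif uses against APOBEC3 proteins, or to enzymes that work with it. Of these, 2 were higher, CUL5 (1.00) and RNF7 (0.61), and 2 lower, UBE2F (-1.07) and TCEB2 (-0.46). CUL5 was lower with siACAT1-2 than with siACAT1-1 (log2 difference -0.70, SE 0.15, edgeR adjusted p = 0.022).

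Of 9 tested genes that flank the cluster, NPTXR (3.99) and CBX7 (1.50) were higher in UM-UC-3 with siNC, PDGFB (-3.53) was lower, and 6 did not pass, among them CBX6 (-0.02) and SUN2 (0.16).

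Markers of cell state also differed between the lines, and their part in the APOBEC3 differences was not tested. Of 11 tested urothelial and epithelial markers 1 was higher in UM-UC-3 with siNC and 6 were lower, against 22% and 22.3% of all tested genes. TP63, the higher one, had at most 2 reads in a T24 siNC library and at most 40 in UM-UC-3 siNC, and no fold is given. Among the lower ones were KRT7 (-6.05), KRT19 (-7.78) and EPCAM (-5.34), the last 2 with at most 9 and 8 reads in a UM-UC-3 siNC library. The markers of this list summed to 131 to 211 RPKM in the UM-UC-3 libraries and to 302 to 1100 RPKM in those of T24. Of 6 tested mesenchymal markers ZEB1 (1.23) was higher and 3 were lower, SNAI2 (-5.79), FN1 (-4.09) and CDH2 (-1.62). That list summed to 241 to 350 RPKM and to 198 to 425 RPKM. In the comparison of siACAT1-2 with siACAT1-1, FN1 (0.99) and VIM (0.69) were called higher without the block, beside CUL5, which was lower. Of the 25 interferon-induced genes 1 was called higher there, IFIT3 (0.69), and 1 lower. Of all tested genes, 1.18% were called higher and 1.38% lower in that comparison without the block.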

How the data were processed

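Human RNA-seq counts were analyzed for 18 libraries in 6 groups of 3. Trimming (Trimmomatic 0.36), alignment to GRCh38 (STAR 2.5.3) and counting over exons were done by the authors, the last with featureCounts (Subread 1.5.1 in the submitters' processing notes). They deposited raw read counts for 39496 genes and RPKM, which the authors calculated from the same counts, and recalculation differed by at most 4.36e-06. The annotation release, strand setting, treatment of multi-mapping reads and collapse of molecular identifiers are not given in the sources used here. Among counts of 1 to 19, 72.5% were even. Groups were taken from the sample labels. The labels call replicates biological, but the sources used here do not say whether each was a separate culture or transfection, and p-values measure the spread between these libraries. No replicate pair of the 18 looked like a library deposited more than once, as chi-square over its degrees of freedom was at least 11.8.

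The test was that of edgeR 4.0.16 under R 4.3.3 (TMM, filterByExpr by group, quasi-likelihood test, 1 model of 6 groups), with Benjamini-Hochberg adjustment over all 20144 genes kept. A call is an adjusted p below 0.05. RPKM served for levels only. Deviations of libraries with the same replicate number correlated at 0.115 to 0.576 in UM-UC-3 (median 0.433) and 0.356 to 0.686 in T24 (median 0.524). Between other numbers of a line they correlated at -0.545 to 0.269 in UM-UC-3, which overlaps, and at -0.567 to 0.21 in T24. The number within a line was treated as pairing and used as a block (edgeR, and for cell line differences limma 3.58.1 voom with a random block). Correlations used log2 CPM with a prior count of 2. Alternatives were RLE scaling, DESeq2 1.42.0, other filters, the compared libraries only, and leaving out each library. Procedures were tested on simulated data. All members were named, with up to 4 called genes of each list by size in the cell line comparison, genes called in siRNA comparisons without the block, and the 3 rows most like each member; some genes that this rule names are not reported here. Members and lists were chosen with earlier results of these data known. Sequences were read from the GRCh38 reference and GENCODE v44.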

Additional observations from a re-analysis of the deposited data

How the results depend on the processing

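Of the 6 tested members, 5 were called higher in UM-UC-3 with siNC under RLE scaling, DESeq2, a minimum of 1 CPM in 3 libraries and the random block, and 4 without a filter or with the 6 compared libraries only, and APOBEC3D was the member lost (adjusted p = 0.0815 and 0.0555). Leaving out 1 library gave 3 to 5 with siNC and 5 to 6 over the 3 siRNAs. For siACAT1-1 against siNC, the replicate block gave 1 called member in UM-UC-3 and 5 in T24, and in T24 DESeq2 gave 1 and no filter 2. Over the 4 siRNA comparisons, the block and no filter each gave 2. For siACAT1-2 minus siACAT1-1, the 1 called member became 5 with the block, 3 with DESeq2, 2 without a filter, 0 with RLE scaling and 0 without UM-UC-3 replicate 3, a setting chosen after seeing the data. Over the 3 siRNAs, 6 members were called higher in UM-UC-3 and 5 with the random block. The block changed no other call of a member. Leaving out 1 library, or 1 replicate set of a line with the block (also chosen after seeing the data), gave 0 to 3 for siACAT1-1 in UM-UC-3, 0 to 5 in T24, 0 to 4 over the 4 comparisons, 0 to 5 for siACAT1-2 minus siACAT1-1 and 0 elsewhere. For RLE scaling, DESeq2, other filters, compared libraries only and all left-out fits, the share of all genes called was not counted. Member counts under these settings, here and above, therefore have no background. For siACAT1-2 minus siACAT1-1, genes called in either direction went from 2.56% of all tested genes to 20.6% with the block.

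Directions turned only in comparisons in which no member was called by any of these fits. APOBEC3C with siACAT1-2 in T24 (main 0.003) became -0.003 with RLE and with DESeq2, -0.011 without a filter, -0.001 at 1 CPM, -0.016 with the 6 compared libraries and -0.020 without UM-UC-3 replicate 3. Over these left-out fits it ran from -0.244 to 0.215. In the same comparison APOBEC3A ran from -0.595 to 0.063, APOBEC3D from -0.384 to 0.015, APOBEC3F from -0.278 to 0.087 and APOBEC3G from -0.332 to 0.109. With siACAT1-2 in UM-UC-3, APOBEC3B ran from -0.721 to 0.065 and APOBEC3F from -0.120 to 0.662. The knockdown effect in UM-UC-3 minus T24 ran from -0.126 to 0.532 for APOBEC3A, -0.152 to 0.498 for APOBEC3B, -0.056 to 0.429 for APOBEC3C and -0.076 to 0.501 for APOBEC3F. The cause was not tested. Low counts limit APOBEC3F, APOBEC3H and APOBEC3A in T24.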
